A study of Danio rerio with 2 samples.

Results

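The Snail, Twist and Zeb transcription factors were described in neural crest cells and the remaining cells of zebrafish (Danio rerio) embryos. The members are the genes snai1a, snai1b, snai2, twist1a, twist1b, zeb1a, zeb1b, zeb2a and zeb2b, chosen by name. Of these 9 names, 8 had a row among the 14428 of the deposited expression table, and zeb1a is not analysed here. The embryos carried the transgene crestin_1kb:EGFP, in which a fragment of a neural crest gene, crestin, drives expression of fluorescent EGFP. They were grown to the stage labelled 15 SS, dissociated and sorted by fluorescence. The EGFP-positive library came from about 5500 sorted cells and the EGFP-negative library from about 100000 cells of the same kind of embryo. Both groups therefore share the transgene, the stage and the whole embryo as source. The transgene fragment sets which cells count as crest, so crest cells without EGFP, and other cells with it, can lie on the wrong side of the sort.

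With a single library per group (n = 1) there is no replicate error and no test, and every comparison is of these libraries only. Levels are in FPKM, fragments scaled by gene length and library size, so levels of different genes can be set side by side. In sorted bulk RNA, fewer cells that use a gene and less of its RNA per cell cannot be told apart.

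Snail, Twist and Zeb factors are known as drivers of the epithelial to mesenchymal transition, by which cells loosen their junctions and become migratory. In the neural crest this transition releases cells from the dorsal neural tube. Snail and Zeb proteins are zinc finger repressors that bind E-box sequences, among them those at the E-cadherin gene cdh1. Twist proteins belong to the basic helix-loop-helix class and bind E-boxes as dimers with E proteins. In zebrafish most of these genes exist as duplicates from a genome duplication in the ancestor of teleost fish, marked a and b.

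The crest label was checked on marker genes. All 10 measured members of the crest marker list, which holds none of the 9 factors, were at least 2-fold higher in EGFP-positive cells. Their summed level was 1149 FPKM there, against 175 FPKM in EGFP-negative cells. Sox10, a crest factor, stood at 147 FPKM in EGFP-positive cells and 16.3 FPKM in EGFP-negative cells, and foxd3, an early crest factor, at 86.7 FPKM in EGFP-positive and 7.04 FPKM in EGFP-negative cells. Neither was at 0 in EGFP-negative cells. The crest marker row with the highest level in EGFP-positive cells was fam212aa, at 295 FPKM in EGFP-positive and 64.4 FPKM in EGFP-negative cells.

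The members shared no direction. Twist1a and zeb2a were at least 2-fold higher in EGFP-positive cells, zeb2b was at least 2-fold lower, while the other 5 members lay between. A call needs a 2-fold size on log2(FPKM + 1), with at least 1 FPKM in either library, and all 8 members passed that minimum and were above 0 FPKM in both libraries. Under the same call, 22.9% of 9685 rows were higher and 26.5% lower. Among the 7449 of these rows above 0 in both libraries, 17.8% were higher and 16.5% lower. With so few members, 2 of 8 higher and 1 of 8 lower are read as no result about the group beside those shares. The members' median log2 ratio was 0.32, against -0.04 over all 9685 rows. Over the rows above 0 in both libraries the median was 0.03, and 51.1% had a log2 ratio above 0. The log2 ratio was above 0 for 6 of the 8 members, beside 48.5% of all rows, or for 5 of 8 members, beside 40.3% of all rows, when both libraries were scaled to an equal sum of FPKM.

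**Figure D1:**
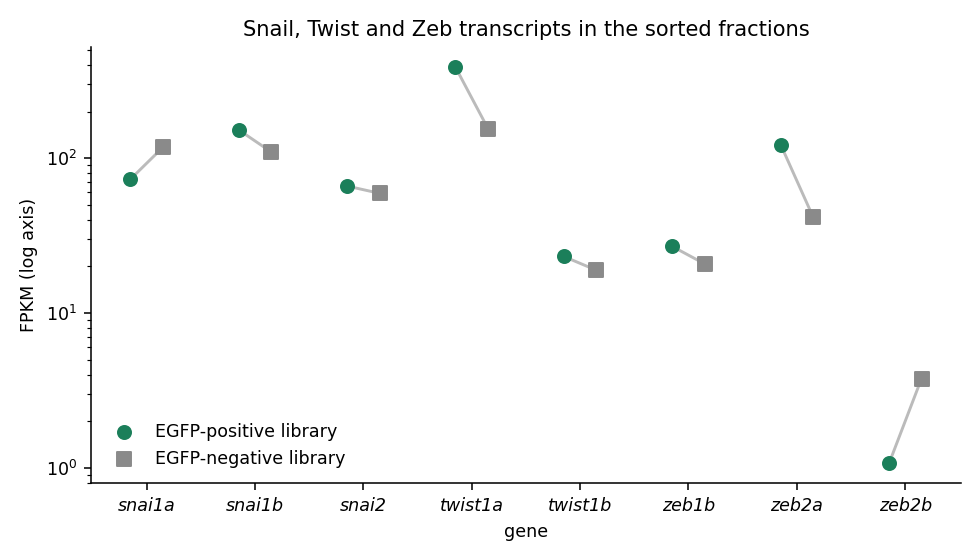
Level of each member in FPKM (log axis), 1 point per library, EGFP-positive (circles, left) beside EGFP-negative (squares, right), joined by a line for the same gene. Twist1a, at 387 FPKM, is the most abundant member in EGFP-positive cells, zeb2a and twist1a have the steepest lines downward to the right, and snai1a and zeb2b are the members that are lower in EGFP-positive cells.

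The Twist genes were unequal in level and in difference. Twist1a, of the Twist1 genes that direct zebrafish cranial crest to its skeletal fate, was at 387 FPKM in EGFP-positive cells and 155 FPKM in EGFP-negative cells. That made it the most abundant member in both libraries, with rank 311 of 8439 rows above 0 in EGFP-positive cells and rank 834 of 8951 in EGFP-negative cells. The ratio of FPKM was 2.49, and 18.3% of all rows had a higher log2 ratio than its 1.31.

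Twist1b, its duplicate, stood at 23.2 FPKM in EGFP-positive cells and 18.9 FPKM in EGFP-negative cells. Its log2 ratio was 0.28, inside the 2-fold range. Twist1a therefore held 94.3% of the summed Twist1 level in EGFP-positive cells and 89.2% in EGFP-negative cells. The duplicates' log2 ratios differed by 1.03, a difference between genes that has no error here. RefSeq gives Twist1b as an older name of twist1a and Twist1a as an older name of twist1b, so which copy is meant depends on an annotation that is not given in the sources used here.

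Further Twist rows, outside the chosen members, pointed in opposite directions. Twist3 was at 17.0 FPKM in EGFP-positive cells and listed at 0 in EGFP-negative cells. Twist2 was listed at 0 in EGFP-positive cells and at 3.23 FPKM in EGFP-negative cells. An exact 0 in this kind of table can be a failed estimate, so no fold is given. RefSeq lists twist2 as an older name of twist3, so which gene each of these rows holds also depends on the annotation.

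The zeb2 duplicates were split, with log2 ratios that differed by 2.74. Zeb2a, known in zebrafish for a role in vagal crest and the enteric nervous system, was at 122 FPKM in EGFP-positive cells and 41.6 FPKM in EGFP-negative cells. Its ratio of 2.94 was the highest among the members, and 15.7% of all rows had a higher log2 ratio than its 1.53. Zeb2b, its duplicate, had the lowest level of the members, at 1.07 FPKM in EGFP-positive cells and 3.77 FPKM in EGFP-negative cells. Zeb2b was 3.54-fold lower as a plain ratio, with a log2 ratio of -1.21. It ranked 8245 of the 8439 rows above 0 in EGFP-positive cells.

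How many fragments lie behind values near 1 FPKM is unknown, and with a pseudocount of 5 FPKM its log2 ratio was -0.53, no longer 2-fold. Zeb2a held 99.1% of the zeb2a and zeb2b sum in EGFP-positive cells and 91.7% in EGFP-negative cells.

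Zeb1b, named kheper in earlier zebrafish work, lay at 26.9 FPKM in EGFP-positive cells and 20.7 FPKM in EGFP-negative cells, a log2 ratio of 0.36. Zeb2a was thus 4.55 times as abundant as zeb1b per length in EGFP-positive cells and 2.01 times in EGFP-negative cells. Of the summed Zeb level, which lacks zeb1a, zeb2a made up 81.4% in EGFP-positive cells and 62.9% in EGFP-negative cells.

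The Snail genes were expressed at like summed levels in both fractions. Together snai1a, snai1b and snai2 reached 291 FPKM in EGFP-positive cells and 286 FPKM in EGFP-negative cells, a ratio of 1.02. None of the 3 was 2-fold apart between the libraries. Within the near equal sum the log2 ratios of the snai1 duplicates had opposite signs in these libraries. Of all rows, 34.7% had a higher log2 ratio than snai1b and 67.6% a higher one than snai1a, so neither stood apart.

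Snai1b, a Snail gene of the premigratory crest in zebrafish, stood at 152 FPKM in EGFP-positive cells and 109.6 FPKM in EGFP-negative cells, a log2 ratio of 0.47. Snai1a, known in zebrafish from the paraxial mesoderm, stood at 72.9 FPKM in EGFP-positive cells and 117 FPKM in EGFP-negative cells, a log2 ratio of -0.68. The snai1 sum was 225 FPKM in EGFP-positive and 227 FPKM in EGFP-negative cells, and the share of snai1a in it was 32.4% in EGFP-positive and 51.7% in EGFP-negative cells. Snai1b was 2.09 times as abundant as snai1a in EGFP-positive cells and 0.934 times in EGFP-negative cells. In EGFP-negative cells both levels were close, and with 1 library their order there is not settled. When both libraries were scaled to an equal sum of FPKM, the log2 ratio of snai1b was 0.19 and that of snai1a -0.96.

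Markers of the presomitic mesoderm mostly moved in the same direction as snai1a. Of 10 considered genes of that list 8 were at least 2-fold lower in EGFP-positive cells (80%, beside 26.5% of all rows). In 4 of these the call rests on a listed 0. None was higher and 2 lay between. Without genes at 0 the median log2 ratio was -1.70 instead of -2.78. The summed level of the list, over 13 rows, was 163 FPKM in EGFP-positive and 711 FPKM in EGFP-negative cells. Ripply1, ripply2, her12 and mespba, segmentation genes, were listed at 0 in EGFP-positive cells. Her1, another segmentation gene, was still at 102 FPKM there, against 448 FPKM in EGFP-negative cells. Tbx6 was at 0.984 FPKM in EGFP-positive and 35.4 FPKM in EGFP-negative cells. The genes between were her7 (16.9 FPKM in EGFP-positive and 20.4 FPKM in EGFP-negative cells) and msgn1 (27.7 FPKM and 29.4 FPKM). The direction is not particular to this list, as 83.3% of muscle, 90.9% of heart and 66.7% of endothelium genes were also lower. Snai1a itself lay inside the 2-fold range. The part of any of these cells in the snai1a difference was not tested.

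Snai2, the gene called slug and known from crest delamination in chick, was at 66.0 FPKM in EGFP-positive and 59.2 FPKM in EGFP-negative cells. Its log2 ratio of 0.15 became -0.13 when both libraries were scaled to an equal sum of FPKM, so its direction depends on the scaling. By level, snai2 held 22.7% of the Snail sum in EGFP-positive cells and 20.7% in EGFP-negative cells. The relatives snai3, scrt1a and scrt1b were listed at 0 in both libraries. Scrt2, a Scratch factor of neurons, was at 1.32 FPKM in EGFP-positive and 6.83 FPKM in EGFP-negative cells. Of the 4 considered genes on the list of Snail and Twist relatives, which also holds hand2, 1 was higher and 3 lower. These are 25% and 75%, beside 22.9% and 26.5% of all rows, and with 4 genes they are read as no result.

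**Figure D2:**
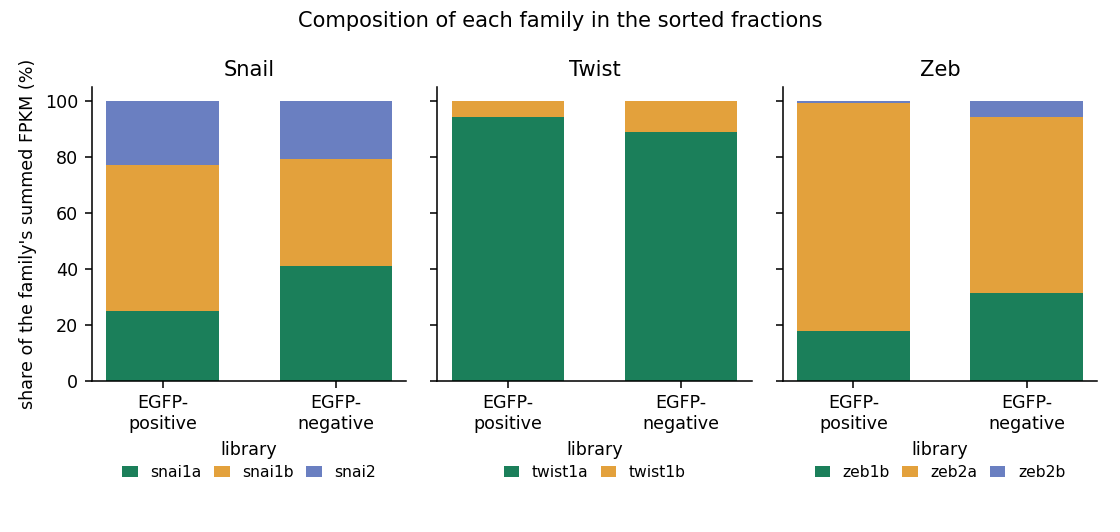
Share (%) of each family's summed FPKM held by each gene, 1 bar per library, EGFP-positive left of EGFP-negative, for Snail (3 genes), Twist (2 genes) and Zeb (3 genes). Twist1a and zeb2a hold larger shares in EGFP-positive cells (94.3% and 81.4%) than in EGFP-negative cells (89.2% and 62.9%), and in the Snail panel the share of snai1a is 25.0% in EGFP-positive against 41.0% in EGFP-negative cells.

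By family, the Twist sum was 410 FPKM in EGFP-positive and 174 FPKM in EGFP-negative cells, a ratio of 2.35. The Zeb sum, without zeb1a, was 150.3 FPKM in EGFP-positive and 66.1 FPKM in EGFP-negative cells, a ratio of 2.27. Each rests on 1 gene. Without twist1a the log2 ratio of the Twist sum was 0.29 instead of 1.24, and without zeb2a that of the Zeb sum was 0.19 instead of 1.18. As a share of all FPKM in its library, Twist held 0.0376% in EGFP-positive and 0.0195% in EGFP-negative cells. Zeb held 0.0138% and 0.00739%, and Snail 0.0267% and 0.0320%. On this scale the Twist and Zeb differences lay inside the 2-fold range, and Snail was lower in EGFP-positive cells. Over all 8 genes the EGFP-positive library held 851 FPKM and the EGFP-negative library 526 FPKM. Twist1a alone made up 45.4% of the total in EGFP-positive cells and 29.5% in EGFP-negative cells.

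In order of level in EGFP-positive cells the members ran twist1a, snai1b, zeb2a, snai1a, snai2, zeb1b, twist1b and zeb2b. In the EGFP-negative library the order was twist1a, snai1a, snai1b, snai2, zeb2a, zeb1b, twist1b and zeb2b. The lowest members thus kept their places, zeb2a stood higher in the EGFP-positive order and snai1a lower. No spread is known for any neighbours in these orders, so none can be said to differ.

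**Figure D3:**
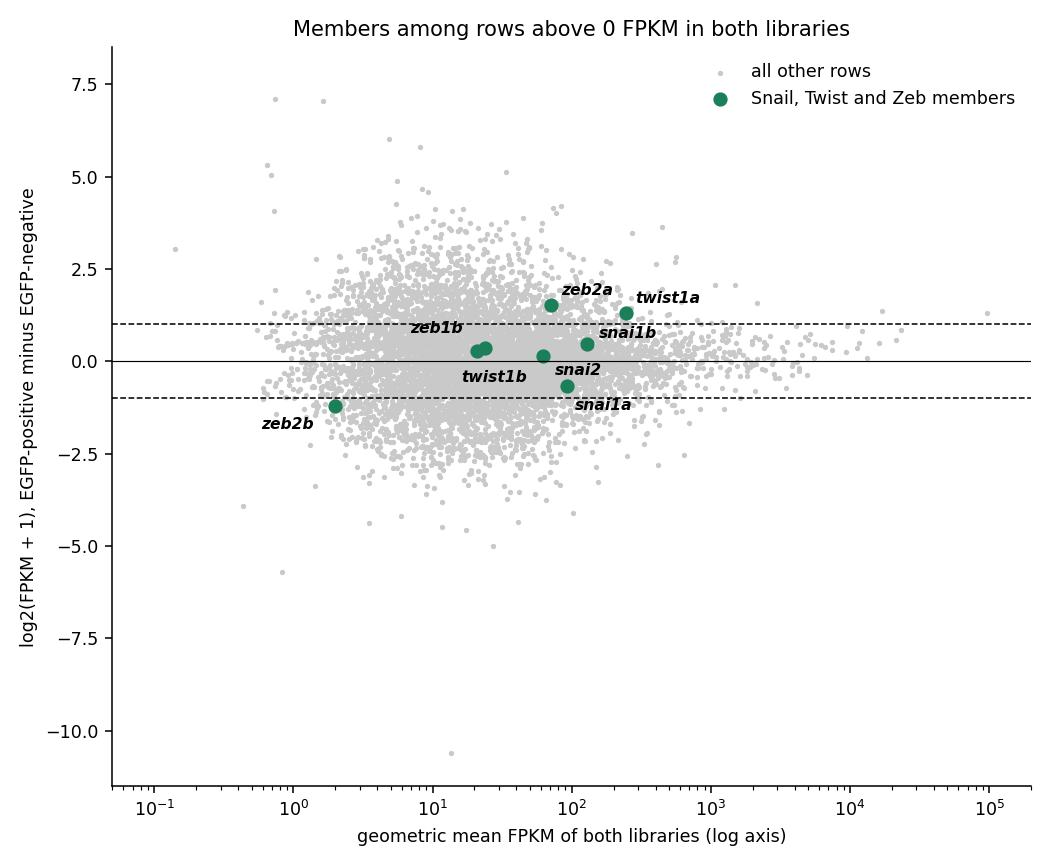
Log2(FPKM + 1), EGFP-positive minus EGFP-negative (vertical axis), against the geometric mean FPKM of both libraries (log axis), for rows above 0 FPKM in both. Dashed lines mark 2-fold. Twist1a (1.31) and zeb2a (1.53) lie above the upper line, zeb2b (-1.21) lies below the lower line at low level, and all 8 members lie inside the cloud of other rows.

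Rows of like abundance give a closer background. Of 5253 rows above 0 in both libraries whose geometric mean lay between 10 and 500 FPKM, a range chosen after seeing the data that holds 7 of the members, 16.2% were at least 2-fold higher and 15.6% lower. The SD of the log2 ratio over these rows was 1.13, so twist1a and zeb2a lay little more than this distance from the middle of these rows. The range is wide, and the spread at the level of either gene was not computed.

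Genes that Twist pairs with, and their inhibitors, gave counts near those of all rows. Of 7 considered 2 were higher (28.6%, beside 22.9% of all rows) and 1 lower (14.3%, beside 26.5%). The other 4 (57.1%, beside 50.6%) lay between, and the median log2 ratio was 0.03. Id2a, an inhibitor of such dimers that acts upstream of twist1 in zebrafish cranial crest, was at 780.3 FPKM in EGFP-positive and 322 FPKM in EGFP-negative cells, a log2 ratio of 1.27 beside the 1.31 of twist1a. Id2b, its relative, was at 15.4 FPKM in EGFP-positive cells and listed at 0 in EGFP-negative cells. Hand2, a partner of Twist in mouse limb mesoderm, was lower, at 2.55 FPKM in EGFP-positive and 17.5 FPKM in EGFP-negative cells.

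The Id genes id3 and id1, of the same class of inhibitors, lay inside the 2-fold range. Id3 was at 1421 FPKM in EGFP-positive and 1864 FPKM in EGFP-negative cells, and id1 at 345 FPKM in EGFP-positive and 306 FPKM in EGFP-negative cells. The E protein gene tcf12, whose product dimerises with Twist, was at 43.4 FPKM in EGFP-positive and 62.8 FPKM in EGFP-negative cells. A more abundant E protein row, zgc:113045 (an older symbol of tcf3b), was near equal, at 273 FPKM in EGFP-positive and 268 FPKM in EGFP-negative cells.

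Co-repressors through which Snail and Zeb proteins act were mostly alike in both fractions. Of 25 considered genes 23 (92.0%) lay inside the 2-fold range, beside 50.6% of all rows, with a median log2 ratio of 0.01. All 25 were above 0 in both libraries, and rows at 0 in 1 library add to the calls among all rows. Among rows above 0 in both, 17.8% were higher and 16.5% lower, beside 4% higher and 4% lower in the list. Lmo4b, a LIM adaptor, was higher, at 49.3 FPKM in EGFP-positive and 20.5 FPKM in EGFP-negative cells. Ctbp2, of the CtBP co-repressors known as partners of Zeb, was lower, at 7.23 FPKM in EGFP-positive and 19.2 FPKM in EGFP-negative cells. The more abundant ctbp1 lay inside the range, at 151 FPKM in EGFP-positive and 119 FPKM in EGFP-negative cells. The Polycomb subunit genes suz12b (169 FPKM in EGFP-positive and 109 FPKM in EGFP-negative cells) and eed (19.0 FPKM in EGFP-positive and 12.1 FPKM in EGFP-negative cells), and the corepressor gene rcor1 (55.1 FPKM in EGFP-positive and 93.5 FPKM in EGFP-negative cells), lay inside the range.

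Kinases and ubiquitin ligases known to control the stability of Snail proteins in mammals were also mostly alike. Of 18 considered 2 were higher, 2 lower and 14 (77.8%) between, beside 50.6% of all rows, with a median of 0.01. For the 17 above 0 in both libraries, 5.88% were higher and 11.8% lower, beside 17.8% and 16.5% of all such rows. Gsk3aa, a copy of a kinase that marks Snail for breakdown, was at 25.9 FPKM in EGFP-positive and 6.70 FPKM in EGFP-negative cells. Its more abundant relatives lay inside the 2-fold range. Gsk3b was at 39.8 FPKM in EGFP-positive and 35.4 FPKM in EGFP-negative cells, and gsk3ab at 52.8 FPKM and 88.3 FPKM. Siah2l, a ubiquitin ligase gene, was at 17.1 FPKM in EGFP-positive and 43.6 FPKM in EGFP-negative cells, and ck2a2a, a casein kinase subunit gene, at 3.45 FPKM in EGFP-positive and 36.4 FPKM in EGFP-negative cells. Fbxl14b, of the F-box family that targets Snail proteins, was at 25.8 FPKM in EGFP-positive and 47.2 FPKM in EGFP-negative cells, inside the 2-fold range.

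Signals known to induce these factors were listed with their receptors and transducers. Of 34 considered 5 were higher (14.7%, beside 22.9% of all rows), 11 lower (32.4%, beside 26.5%) and 18 between, with a median of -0.33. For the 28 above 0 in both libraries, 3 were higher (10.7%, beside 17.8% of all such rows) and 7 lower (25%, beside 16.5%). Their median was -0.29. Tgfb2, a ligand known to drive the transition, was higher, at 20.9 FPKM in EGFP-positive and 2.95 FPKM in EGFP-negative cells. Smad3a, a transducer of that pathway, was also higher, at 78.7 FPKM in EGFP-positive and 20.9 FPKM in EGFP-negative cells. Other genes of the same pathway were at least 2-fold lower. Tgfb1a was at 2.65 FPKM in EGFP-positive and 11.9 FPKM in EGFP-negative cells. Tgfb3 was at 3.03 FPKM in EGFP-positive and 12.0 FPKM in EGFP-negative cells, and smad2 at 49.7 FPKM and 114 FPKM. The receptor genes tgfbr1a, tgfbr1b and tgfbr2 lay inside the 2-fold range. Wnt11, a ligand of non-canonical Wnt signalling, was at 107 FPKM in EGFP-positive cells and listed at 0 in EGFP-negative cells. The ligand genes bmp6, wnt10a and wnt7aa were listed at 0 in EGFP-positive cells, and in EGFP-negative cells bmp6 was at 10.7 FPKM, wnt10a at 9.48 FPKM and wnt7aa at 6.54 FPKM.

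Epithelial genes, the class that Snail and Zeb factors are known to repress, were described next. Of 44 considered genes 15 were higher (34.1%, beside 22.9% of all rows), 7 lower (15.9%, beside 26.5%) and 22 between, with a median log2 ratio of 0.45. Leaving out those at 0 in either library, 34 remained, with 9 higher (26.5%, beside 17.8% of all such rows) and 3 lower (8.82%, beside 16.5%), and their median was 0.43. Cdh1, the E-cadherin gene, was at 139 FPKM in EGFP-positive and 60.1 FPKM in EGFP-negative cells, a log2 ratio of 1.19.

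The extremes of the list, mostly genes of tight junctions and cell polarity, were all listed at 0 in one library. Pard6b (46.5 FPKM), marveld2b (17.6 FPKM) and crb3b (15.5 FPKM) were measured in EGFP-positive cells and listed at 0 in EGFP-negative cells. Cldng, grhl2a and pard6a were listed at 0 in EGFP-positive cells, and in EGFP-negative cells cldng was at 48.7 FPKM, grhl2a at 30.6 FPKM and pard6a at 5.86 FPKM.

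Markers of other epithelia were present in both libraries. Over all rows 22.9% were higher and 26.5% lower. The share higher was 23.1% in the epidermis list, near that of all rows, 50% in the hatching gland list and 60% in the kidney list. The epidermis list summed to 1062 FPKM in EGFP-positive and 1123 FPKM in EGFP-negative cells over 15 rows, of which 9 also stand on the epithelial list, with 3 higher and none lower of 13 considered, and was led by the keratin gene krt8 (348 FPKM in EGFP-positive and 552 FPKM in EGFP-negative cells). The hatching gland list summed to 2123 FPKM in EGFP-positive and 921 FPKM in EGFP-negative cells over 7 rows, with 3 higher and 1 lower of 6, and was led by the hatching enzyme gene he1a (1004 FPKM in EGFP-positive and 159.9 FPKM in EGFP-negative cells). The kidney list summed to 342 FPKM in EGFP-positive and 244 FPKM in EGFP-negative cells over 16 rows, with 6 higher and 2 lower of 10, led by pax2a (94.4 FPKM in EGFP-positive and 35.7 FPKM in EGFP-negative cells). The part of these cells in the cdh1 and epithelial values was not tested.

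On the list of genes of the mesenchymal state 9 of 39 were higher (23.1%, beside 22.9% of all rows). Lower were 8 (20.5%, beside 26.5%) and 22 lay between, with a median of -0.03. For the 37 above 0 in both libraries, 9 were higher (24.3%, beside 17.8% of all such rows) and 6 lower (16.2%, beside 16.5%). Cdh2, the N-cadherin gene, was at 104.7 FPKM in EGFP-positive and 200.1 FPKM in EGFP-negative cells, a log2 ratio of -0.93 and so inside the 2-fold range. Scaling to equal sums of FPKM, a shift of -0.29, would take cdh2 out of that range and cdh1 into it. Cdh7, a cadherin of migrating crest in chick, was at 68.9 FPKM in EGFP-positive and 17.8 FPKM in EGFP-negative cells. Vim, the vimentin gene, was low in both, at 8.80 FPKM in EGFP-positive and 5.33 FPKM in EGFP-negative cells, and fn1b, a fibronectin gene, was lower, at 40.3 FPKM in EGFP-positive and 93.4 FPKM in EGFP-negative cells.

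A matrix protease gene, mmp9, stood near the upper end of that list, at 23.1 FPKM in EGFP-positive and 3.26 FPKM in EGFP-negative cells. Serpine2, a protease inhibitor gene, stood near the lower end, at 7.72 FPKM in EGFP-positive and 37.7 FPKM in EGFP-negative cells. Pdgfrb, a growth factor receptor gene of mural cells, was listed at 0 in EGFP-positive cells and at 19.7 FPKM in EGFP-negative cells.

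**Figure D4:**
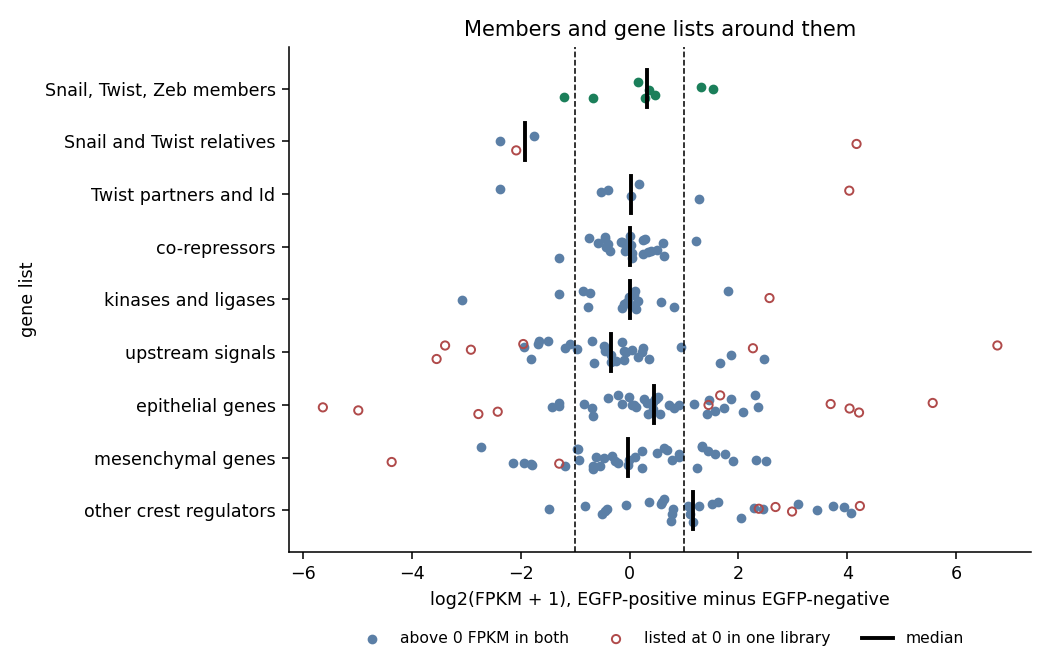
Log2(FPKM + 1), EGFP-positive minus EGFP-negative, for each considered gene (points), by list, with the list's median as a black bar, dashed lines at 2-fold, and open circles for genes listed at 0 in one library. The members (green, top) have a median of 0.32, co-repressors cluster at 0.01, epithelial genes have a median of 0.45 and other crest regulators of 1.17. Of the other crest regulators, 7 are markers that had served to check the sort and raise that median.

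Other regulators of the crest, 7 of them also crest markers above, give a comparison for the members. Of 31 considered crest regulators outside the 3 families 18 were at least 2-fold higher (58.1%, beside 22.9% of all rows). In the same list 1 was lower (3.23%, beside 26.5%) and 12 lay between. The median log2 ratio was 1.17 beside the 0.32 of the members. Among the 27 above 0 in both libraries 14 were higher (51.9%, beside 17.8% of all such rows), with a median of 1.08. The 7 crest markers were all among the higher genes and had served to check the sort, so they raise these counts and medians. The list was not summarised without them, and its medians were not tested against that of the members. Erbb3b, a neuregulin receptor gene, was at 16.4 FPKM in EGFP-positive and 0.032 FPKM in EGFP-negative cells, and dlx2a, a factor of cranial crest mesenchyme, at 38.4 FPKM in EGFP-positive and 1.57 FPKM in EGFP-negative cells. The msxd gene, of the neural border, was at 17.8 FPKM in EGFP-positive cells and listed at 0 in EGFP-negative cells. Zic1, a neural border and neural plate factor, was the lower one, at 13.4 FPKM in EGFP-positive and 39.1 FPKM in EGFP-negative cells.

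Markers of mesodermal cells, some of which use Twist and Snail genes, were mostly lower in EGFP-positive cells. Beside 26.5% of all rows, 83.3% of considered muscle genes, 90.9% of heart genes and 66.7% of endothelium genes were lower. The muscle list summed to 287 FPKM in EGFP-positive and 1080 FPKM in EGFP-negative cells over 15 rows, with 10 of 12 considered lower and 1 higher, led by actc1a (178 FPKM in EGFP-positive and 686 FPKM in EGFP-negative cells). The heart list summed to 280 FPKM in EGFP-positive and 2032 FPKM in EGFP-negative cells over 12 rows, with 10 of 11 lower, 3 of these by a listed 0. It was led by myl7 (156 FPKM in EGFP-positive and 1107 FPKM in EGFP-negative cells). The endothelium list summed to 232 FPKM in EGFP-positive and 911 FPKM in EGFP-negative cells over 12 rows, with 8 of 12 lower, led by fli1a (70.0 FPKM in EGFP-positive and 93.2 FPKM in EGFP-negative cells).

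For the sclerotome, a tissue in which vertebrate Twist genes are known to be active, pax1a, pax9 and matn1 were at 0 in both libraries. Of its 4 considered genes 2 were lower, 1 of these by a listed 0, and none higher, and the highest was col2a1a, at 111 FPKM in EGFP-positive and 135 FPKM in EGFP-negative cells. The blood list had 7 of 14 lower, 2 of these by a listed 0, and 1 higher, led by hbae1 (1157 FPKM in EGFP-positive and 2287 FPKM in EGFP-negative cells). The list for notochord and floor plate had 6 of 11 lower and none higher, but 5 of these 6 were listed at 0 in EGFP-positive cells, and without genes at 0 its median log2 ratio was -0.19 instead of -1.55. It was led by col8a1a (33.4 FPKM in EGFP-positive and 31.5 FPKM in EGFP-negative cells). The neural list had 7 of 16 lower, 3 of these by a listed 0, and 2 higher, led by elavl3 (112 FPKM in EGFP-positive and 76.2 FPKM in EGFP-negative cells). The share lower was 50% in the sclerotome and blood lists, 54.5% for notochord and floor plate and 43.8% in the neural list, beside 26.5% of all rows. Higher were 7.14% of the blood list and 12.5% of the neural list, beside 22.9%. With 4 genes, the sclerotome count is read as no result. The part of any of these cells in the level of a member in EGFP-negative cells was not tested.

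By position, each snai1 duplicate lies beside a copy of tp53inp2 in the RefSeq order of genes (assembly GRCz12tu), an order shared by the pair. Neighbours of other members did not all follow them. Gtdc1 and acvr2aa, on either side of zeb2a, had log2 ratios of 0.72 and 0.09 beside the 1.53 of zeb2a. Beside zeb1b (0.36), arhgap12b was at 0.42, while znf438 was lower, at 10.1 FPKM in EGFP-positive and 47.5 FPKM in EGFP-negative cells. Next to the gene that RefSeq now calls twist1a, the row twistnb, named for its place and encoding an RNA polymerase I subunit, had a log2 ratio of 0.31. Which Twist1 row belongs to that gene depends on the annotation, as said above.

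Among 312 considered list genes, the one nearest to twist1a in its 2 log2 levels was tagln2, an actin binding protein gene, at 355 FPKM in EGFP-positive and 151 FPKM in EGFP-negative cells. Nearest to zeb2a was the integrin gene itgb1a, at 120.4 FPKM in EGFP-positive and 47.5 FPKM in EGFP-negative cells, and nearest to snai1b was pdgfra, a growth factor receptor gene, at 161 FPKM in EGFP-positive and 113 FPKM in EGFP-negative cells. Nearest to snai1a was the keratin gene cyt1, at 72.5 FPKM in EGFP-positive and 109.6 FPKM in EGFP-negative cells. Likeness was the straight distance over 2 libraries, and with so few values many genes lie near each other.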

How the data were processed

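RNA of 2 sorted fractions was sequenced, 1 library each. Per the labels' protocols, RNA was isolated with Trizol and a carrier, depleted of ribosomal RNA and made into libraries with a low-input kit. The authors deposited 1 table of FPKM values, 1 row per gene symbol. Per the submitters' processing notes, cutadapt, TopHat2 2.0.11, Cufflinks 2.2.1 and genome build Zv9 were used. The options, the annotation and any scaling between libraries are not stated. FPKM carry no total count: among 712 low rows (both values above 0 and below 6 FPKM), the fullest 0.02-wide bin of log2 ratios held 1.54%, so no read steps were recovered, depth is unknown and no counting interval is given.

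The log2 ratio was log2(FPKM + 1) in EGFP-positive minus EGFP-negative cells (Python 3.11.15, pandas 2.3.3). The pseudocount of 1 understates changes of low genes. A simulation without noise, with changes larger than the cutoff, checked only the arithmetic of the calls. It says nothing about their error. List names were matched to rows by symbol and, for 20 rows, by RefSeq synonyms. Of the row names 10935 are current RefSeq symbols and 2920 older ones. No member lies in any of the 58 rows of joined symbols. From each list the 3 highest and 3 lowest genes at 5 FPKM or more were named, with a few fixed names, and of each marker list the most abundant in EGFP-positive cells. Fewer were available where lists were short, and some are not reported here. Genes named outside that rule (twist2, snai3, scrt1a, scrt1b, segmentation genes at 0, sclerotome genes at 0, neighbours) were chosen after their values were seen. The same holds for tgfb1a, tgfb3, smad2, tgfbr1a, tgfbr1b, tgfbr2, ctbp1, gsk3b, gsk3ab, tbx6, her7, msgn1 and zgc:113045. The members and lists were chosen with earlier results of these data known. Protein and promoter sequences were not used here.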

Additional observations from a re-analysis of the deposited data

How the results depend on the processing

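Pseudocounts of 0.1 and 5 FPKM, no minimum or a minimum of 5 FPKM, and 4 scalings of the libraries were tried. Under all 8 of these, 2 members were at least 2-fold higher, and the members' median log2 ratio ranged over 0.05 to 0.36. The number of lower members was 0 with a pseudocount of 5 FPKM (zeb2b at -0.53) and 0 with the minimum of 5 FPKM, which zeb2b does not reach. At a 1.5-fold call 2 members were lower, and at a 3-fold call 0 were higher and 0 lower. Scaling to equal sums moved the log2 quotient of FPKM by -0.29, and by -0.17 without rn7sk, and low genes less on the log2(FPKM + 1) scale (zeb2b to -1.39 and -1.32). Rn7sk made up 13.9% of the EGFP-positive and 6.85% of the EGFP-negative sum. With these scalings snai2 lay at -0.13 and -0.02, and twist1a and zeb2a stayed at 1.03 and 1.25 or more. No paired analysis was possible because each group has 1 library. Precision is limited by the lack of replicates and of known depth, above all for zeb2b. The inputs of about 5500 EGFP-positive and about 100000 EGFP-negative cells also differ. An effect of input, on values listed at 0 too, cannot be told apart from EGFP status.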
